A study of Mus musculus with 6 samples.

Results

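The 9 genes described here are App, Psen2, Bace1, Mapt, Apoe, Clu, Bin1, Sorl1 and Picalm, which are central to the biology of Alzheimer disease and of the protein tau. They were taken by name, by a rule that holds no measured value, though earlier results of these data were already known. All 9 were found among the 38355 genes of the count data and passed edgeR's filter on low counts, which kept 17120 genes. RNA sequencing was performed on whole cortical hemispheres of C57BL/6 wild-type mice, the common inbred laboratory strain, at 6 months (3 samples) and at 16 months (3 samples). No sample carried a transgene or received a treatment, so that the mice were not a model of amyloid or tau disease. In the housing protocol the younger mice are described as 3 months old. The age of 6 months used here is that of the sample labels and of the study's methods.

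Amyloid precursor protein (App) is a membrane protein that is cut by proteases called secretases, and one order of cuts releases the amyloid-beta peptide, which forms the plaques of Alzheimer disease. Sorting and endocytic proteins such as Sorl1, Bin1 and Picalm carry the precursor through the compartments where these cuts take place, and the secreted lipoproteins Apoe and Clu, made largely by astrocytes in the brain, bind the peptide. Tau, the product of Mapt, stabilizes microtubules in axons and is the main component of neurofibrillary tangles. Variants near several of these genes are linked to disease risk in humans.

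Total counts on genes lay between 29797253 and 46519280 per sample, and the 9 genes together took 0.498% to 0.544% of them. Levels are given as counts per 1000000 counts (CPM) after scaling the library sizes with the TMM method. The tissue is labelled as cortex, and all 10 neuron, 8 cortical excitatory, 10 astrocyte, 10 oligodendrocyte and 10 microglia markers passed the filter. All 10 thalamic and 8 dentate gyrus markers passed it too, so that passing does not tell cortex from regions next to it. The samples at 16 months differed more from each other than those at 6 months. The deviations of genes from the mean of their age followed their GC content with r = 0.600 in replicate 1 and −0.592 in replicate 2 at 16 months, across genes, which are not independent replicates, against −0.130 to 0.163 in the other 4 samples. Fold changes are therefore also given without replicate 1 or 2 of 16 months. Markers of regions next to the cortex were mostly higher at 16 months. EdgeR called 7 of 10 thalamic and 5 of 8 dentate gyrus markers (adjusted P under 0.05), all as higher. Of the 8 tested choroid plexus markers, 1 was called, also as higher (Ttr, 8.95 and 17.8 CPM). Of all tested genes, 0.783% were called as higher. The summed level of the choroid plexus markers was 18.1 to 19.7 CPM at 6 months and 27.1 to 30.6 CPM at 16 months. The part of these regions in the values of the 9 genes was not tested. In whole tissue, a change in the number of cells of a type and a change in the RNA of each cell cannot be told apart.

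None of the 9 genes passed the test for a difference between the ages. The quasi-likelihood test of edgeR, with P values adjusted over all genes by the Benjamini-Hochberg method, called 0 of the 9 members at an adjusted P under 0.05. Of all tested genes it called 1.67%, 0.783% as higher and 0.888% as lower at 16 months. At an unadjusted P under 0.05 the count of members was 1 of 9 (Bace1), where 17.4% of all tested genes passed this threshold. The Wald test of DESeq2 called 0, against 2.67% of the genes it tested. The fitted changes were small, from 2.24% lower for Apoe to 8.71% higher for Sorl1. Of the 9, 8 had a positive log2 fold change (16 over 6 months), as did 50.3% of all tested genes. This count includes Bin1 at 0.00043. Psen2 and Bin1 were negative with the offsets for GC content and gene length described below, and without replicate 1 of 16 months. The median log2 fold change of the 9 was 0.046, beside 0.0014 over all tested genes. For 2 members, App and Bace1, the 3 samples at 16 months all lay above the 3 samples at 6 months, an order found in 12.2% of all tested genes, and 23.7% did not overlap in either direction.

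**Figure D1:**
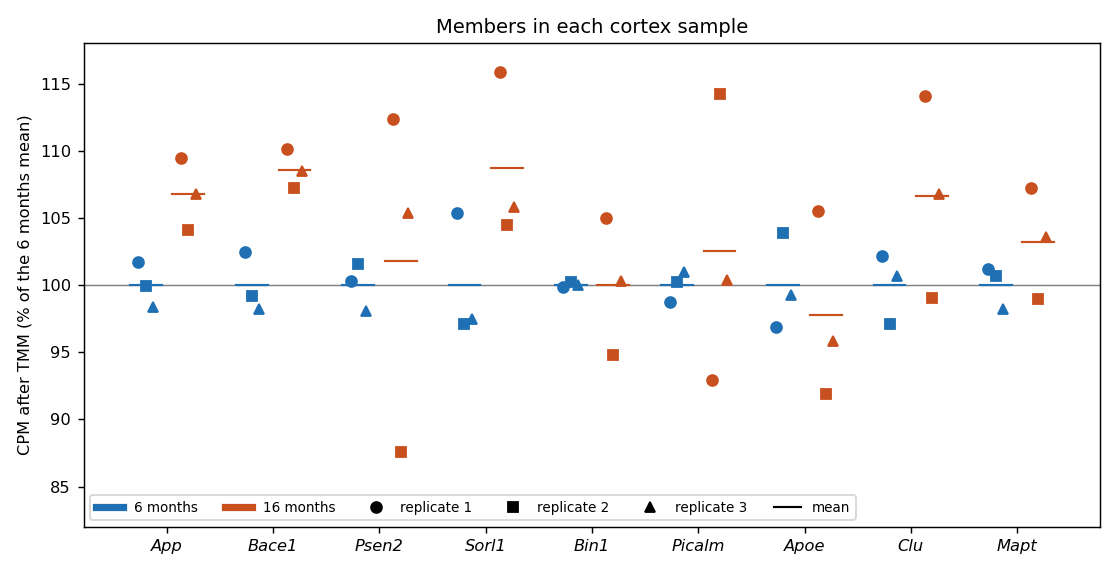
Level of each of the 9 genes in each sample, as CPM after TMM in percent of the mean at 6 months (blue, 6 months; orange, 16 months; circle, square and triangle for replicates 1, 2 and 3; short lines for the mean of 3 samples). The orange points of App and Bace1 all lie above the blue ones, while those of Psen2 spread from 87.6% to 112% and those of Picalm from 92.9% to 114%.

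The 3 stretches of coding sequence printed here show how the members differ in base composition, the property that the deviations of replicates 1 and 2 at 16 months followed. Each is the central 90 bases of the longest coding exon of the longest coding transcript in GENCODE M21 (GRCm38), written 5′ to 3′ on the coding strand with G and C in capitals. The window of Psen2, in exon 6 of 11, lies at chr1:180235054-180235143 on the minus strand and holds 61.1% G and C. That of Apoe, in exon 4 of 4, lies at chr7:19696698-19696787 on the minus strand and holds 72.2%. That of Picalm, in exon 13 of 21, lies at chr7:90182249-90182338 on the plus strand and holds 42.2%.
Psen2: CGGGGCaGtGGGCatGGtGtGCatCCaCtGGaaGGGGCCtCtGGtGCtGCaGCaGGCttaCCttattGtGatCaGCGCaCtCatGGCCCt
Apoe: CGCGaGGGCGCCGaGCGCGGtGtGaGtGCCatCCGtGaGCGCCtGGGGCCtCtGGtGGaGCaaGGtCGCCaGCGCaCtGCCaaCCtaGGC
Picalm: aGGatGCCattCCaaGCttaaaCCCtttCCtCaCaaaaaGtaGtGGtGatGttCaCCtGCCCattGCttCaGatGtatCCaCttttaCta
Over all annotated transcripts of the gene, the GC content was 42.02% in Picalm, 48.8% in App, 50.8% in Sorl1, 52.0% in Bace1, 54.3% in Clu, 54.9% in Psen2, 55.4% in Mapt, 57.01% in Bin1 and 60.0% in Apoe.

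App, the precursor of amyloid-beta, lies at chr16:84949685-85173766 (ENSMUSG00000022892, minus strand, GRCm38). Of its exon bases, 0.870% are shared with Gm49227 on the other strand. Its level was 1525, 1498 and 1475 CPM in the 3 samples at 6 months and 1642, 1561 and 1601.5 CPM at 16 months. The ages did not overlap, but the gap between the highest younger and the lowest older sample was smaller than the range within either age. The log2 fold change was 0.095 (SE, the standard error, 0.047) with an edgeR adjusted P of 0.334. The 95% interval of the change ran from −0.700% to 14.9%. Without replicate 1 or replicate 2 of 16 months the log2 fold change was 0.077 or 0.11. A two-sided exact permutation test gave p = 0.1, which is the smallest value that can be reached with 3 samples in each group.

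Bace1, the beta-secretase that makes the first cut toward amyloid-beta, lies at chr9:45838580-45864399 (ENSMUSG00000032086, plus strand). It was measured at 117, 114 and 112 CPM at 6 months and at 126, 123 and 124 CPM at 16 months. The samples of the ages lay apart, and Bace1 was the only member with a smaller SD at 16 than at 6 months (1.63 against 2.58 CPM, n = 3 each). The log2 fold change was 0.12 (SE 0.049) with an edgeR adjusted P of 0.244, and the 95% interval of the change ran from 0.722% to 17.1%. Bace1 had a log2 fold change of 0.11 without replicate 1 and 0.13 without replicate 2 of 16 months. Of the annotated exon bases of Bace1, 32.5% are shared with Rnf214, Gm16536 or Gm49338 on the opposite strand. The study's methods state default settings in general without naming the strand setting, and the submitters' processing notes list another counting tool, so that reads from these bases cannot be assigned with certainty.

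Because App and Bace1 are expressed by neurons, the summed level of 10 neuron markers is given beside them. This sum was 11320 to 11370 CPM at 6 months and 11730 to 11900 CPM at 16 months (p = 0.1 by exact permutation, again the smallest possible). EdgeR called 0 of the 10 markers, against 1.67% of all tested genes. Of the 10, 8 had a positive and 2 a negative log2 fold change. At an unadjusted P under 0.05 (edgeR) the count was 4, where 17.4% of all tested genes passed. Snap25 alone made up a mean of 3642 CPM of the sum at 6 months and 3468 CPM at 16 months. App amounted to 13.4%, 13.2% and 12.98% of that sum at 6 months and to 14.0%, 13.1% and 13.5% at 16 months, so that the ages overlapped on this scale. Bace1 amounted to 1.03%, 1.00% and 0.989% at 6 months and to 1.07%, 1.03% and 1.04% at 16 months, and the ages overlapped as well. This ratio was computed after the values had been seen, and the part of neuron content in both levels was not tested.

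Psen2 encodes presenilin 2, one of the alternative catalytic subunits of gamma-secretase, which makes the final cut. It lies at chr1:180227004-180263438 (ENSMUSG00000010609, minus strand) and was the member with the fewest reads, 353 to 605 counts per sample, where counting error alone amounts to 5.32% at the lowest count. Its level was 12.9, 13.1 and 12.6 CPM at 6 months and 14.5, 11.3 and 13.6 CPM at 16 months. Replicate 2 of 16 months was the lowest and replicate 1 of 16 months the highest of all 6 samples. The log2 fold change was 0.028 (SE 0.091, edgeR adjusted P = 0.906), and the interval from −11.4% to 17.3% was the widest of the 9. Without replicate 1 of 16 months the log2 fold change was −0.047, and without replicate 2 it was 0.12.

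Sorl1 encodes a sorting receptor that directs the amyloid precursor away from the compartments in which it is cut. The gene lies at chr9:41964720-42124297 (ENSMUSG00000049313, minus strand). Of its exon bases, 1.63% are shared with Gm16214 on the other strand. Its level was 425, 392 and 393 CPM at 6 months and 467, 421 and 426 CPM at 16 months, and replicate 1 was the highest sample of each age. Sorl1 had the largest log2 fold change of the 9 genes, 0.12 (SE 0.060), but replicate 1 of 6 months lay above replicate 2 of 16 months and the adjusted P from edgeR was 0.333. The 95% interval ran from −0.870% to 19.2%, the highest upper bound of the 9. Without replicate 1 of 16 months the log2 fold change was 0.072, and without replicate 2 it was 0.15.

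Bin1 encodes a membrane-bending protein of endocytosis that is abundant in oligodendrocytes and neurons. It lies at chr18:32377230-32435737 (ENSMUSG00000024381, plus strand). Of its exon bases, 6.22% are shared with A830052D11Rik on the other strand. The samples at 6 months were nearly alike at 248.5, 249.3 and 248.8 CPM, while those at 16 months lay at 261, 236 and 249.6 CPM on both sides of them. The mean was 249 CPM at each age, with an SD of 0.408 at 6 and 12.7 at 16 months (n = 3 each). The fitted change was 0.0298% (log2 fold change 0.00043), with a 95% interval from −7.88% to 8.62% and an edgeR adjusted P of 0.998. On the log2 scale it was −0.036 without replicate 1 and 0.038 without replicate 2 of 16 months.

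Picalm encodes an adaptor of clathrin-coated vesicles and lies at chr7:90130213-90213465 (ENSMUSG00000039361, plus strand). Its level was 204, 207 and 208 CPM at 6 months and 192, 235 and 207 CPM at 16 months. In contrast to the other members, replicate 1 of 16 months was the lowest and replicate 2 the highest sample. The log2 fold change was 0.036 (SE 0.072) with an edgeR adjusted P of 0.839, and the 95% interval ran from −8.32% to 14.6%. On the log2 scale, the value was 0.10 without replicate 1 and −0.049 without replicate 2 of 16 months.

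Apoe, the main lipid carrier secreted by astrocytes, lies at chr7:19696109-19699188 (ENSMUSG00000002985, minus strand) and overlaps no other annotated gene. It was measured at 1281, 1374 and 1313 CPM at 6 months and at 1396, 1215 and 1268 CPM at 16 months. Replicate 1 of 16 months was the highest of all 6 samples and replicates 2 and 3 of 16 months were the lowest. Apoe was the only member with a negative log2 fold change, −0.033 (SE 0.061, edgeR adjusted P = 0.825), and the 95% interval ran from −11.1% to 7.48%. Without replicate 1 of 16 months the value was −0.091, and without replicate 2 it was 0.010.

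Clu, or clusterin, is a secreted chaperone that is carried on lipoproteins with Apoe. It lies at chr14:65968483-65981547 (ENSMUSG00000022037, plus strand), likewise without an overlapping gene. Its level was 714, 678 and 703 CPM at 6 months and 797, 692 and 746 CPM at 16 months, so that replicate 2 of 16 months lay within the range of the younger samples. The log2 fold change was 0.093 (SE 0.060, edgeR adjusted P = 0.471) and the 95% interval ran from −2.81% to 17.0%. The fold change was 0.041 (log2) without replicate 1 and 0.14 without replicate 2 of 16 months. Beside these values of Apoe and Clu, 1 of 10 astrocyte markers was called, where 1.67% of all tested genes were called. It was Gfap, which was lower at 16 months (log2 fold change −0.47). Of the 10 markers, 6 had a positive and 4 a negative log2 fold change. At an unadjusted P under 0.05 the count was 7, where 17.4% of all tested genes passed. The summed level of the 10 markers was 6745 to 7094 CPM at 6 months and 7219 to 7900 CPM at 16 months. Slc1a2 alone made up a mean of 4129 and 4597 CPM of it. The part of astrocyte content in the levels of Apoe and Clu was not tested.

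Mapt, which encodes tau, lies at chr11:104231390-104332090 (ENSMUSG00000018411, plus strand). It was measured at 555, 552 and 538 CPM at 6 months and at 588, 542 and 568 CPM at 16 months. The lowest older sample lay within the younger range and the other two above it. The log2 fold change was 0.046 (SE 0.050) with an edgeR adjusted P of 0.685, and the 95% interval of the change ran from −4.49% to 11.6%. It was 0.018 without replicate 1 and 0.076 without replicate 2 of 16 months on the log2 scale. The counts cover all transcripts of the gene, so that the balance of tau isoforms was not measured.

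**Figure D2:**
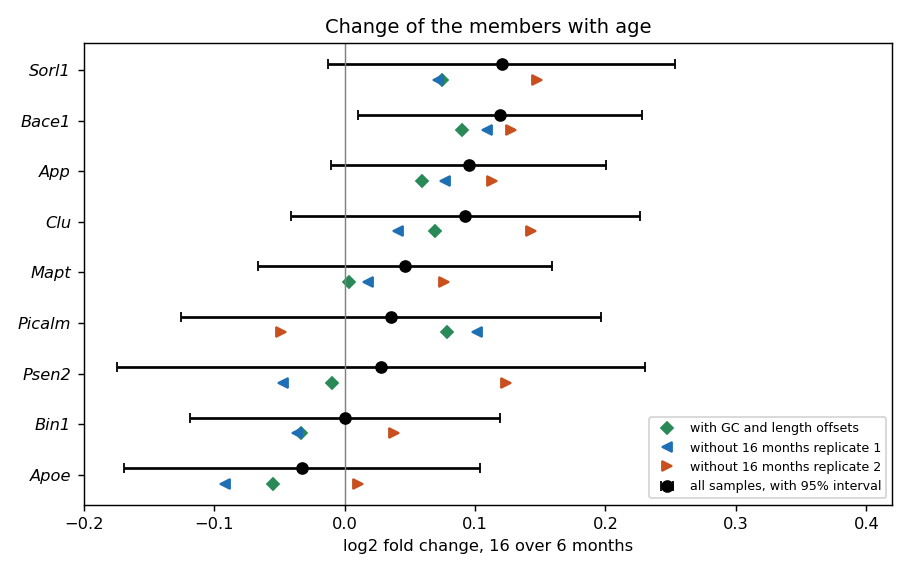
Log2 fold change (16 over 6 months) of the 9 genes, with black points and bars for the fit to all samples and its 95% interval, green diamonds for the fit that included the GC and length offsets, and blue and orange triangles for fits without replicate 1 or replicate 2 of 16 months. The interval of Bace1 lies above 0 before adjustment and the other 8 include 0, and leaving out the one or the other replicate places Psen2, Bin1, Picalm and Apoe on opposite sides of 0.

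Per length, Apoe was the most abundant member and Psen2 the least. Levels between genes were compared as CPM per kilobase of annotated exons, which gave 619 for Apoe, 203 for Clu, 115 for App, 72.8 for Mapt, 60.5 for Bin1, 35.6 for Sorl1, 18.02 for Bace1, 13.1 for Picalm and 2.97 for Psen2 at 6 months (means, n = 3). The order was the same at 16 months, and no neighbours in it overlapped within 1 SD at either age. Per kilobase of the longest coding transcript, however, Picalm (25.1) stood above Bace1 (18.9), and Mapt (104 ± 1.66) and Bin1 (103 ± 0.170 CPM per kilobase, SD, n = 3) did not differ beyond their spread. The order of these neighbours thus depended on the length used, and the transcripts present in the tissue were not measured.

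**Figure D3:**
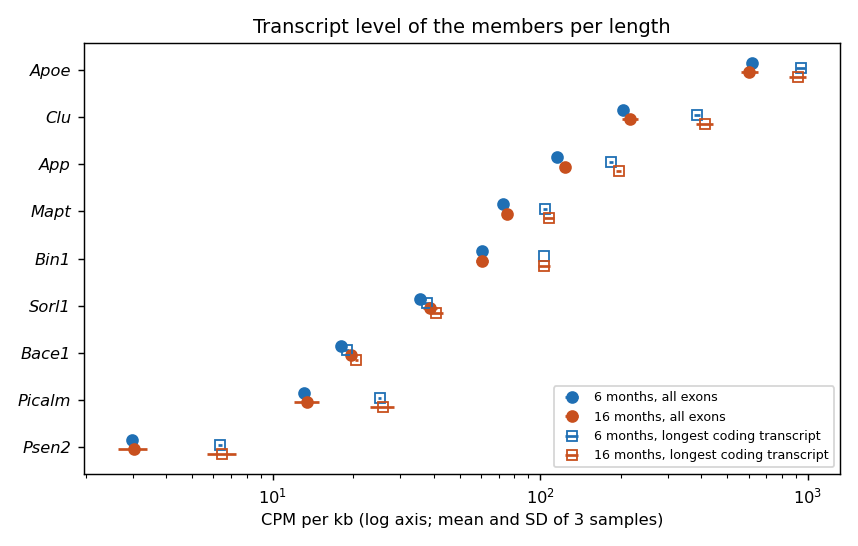
Level of the 9 genes, as CPM per kilobase, on a log axis, as mean and SD of the 3 samples of each age (blue, 6 months; orange, 16 months), divided by all annotated exon bases (filled circles) or by the longest coding transcript (open squares). At 6 months the circles run from 2.97 for Psen2 to 619 for Apoe.

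The spread within an age was larger at 16 months for 8 of the 9 members and for 75.5% of all tested genes. At 6 and 16 months the SD of log2 CPM was 0.026 and 0.19 for Psen2, 0.017 and 0.15 for Picalm and 0.0024 and 0.074 for Bin1, whereas the medians over all tested genes were 0.063 and 0.13. These are descriptions of 3 samples each, without a test. At 16 months, replicate 1 exceeded replicate 2 in 8 of the 9 members, by 2.65% for Bace1, 5.14% for App, 8.38% for Mapt, 10.8% for Bin1, 10.9% for Sorl1, 14.9% for Apoe, 15.2% for Clu and 28.3% for Psen2. Picalm, the member with the lowest GC content, was 18.6% lower in replicate 1 than in replicate 2. Among the other 8, the size of the difference did not follow the order of their GC content.

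**Figure D4:**
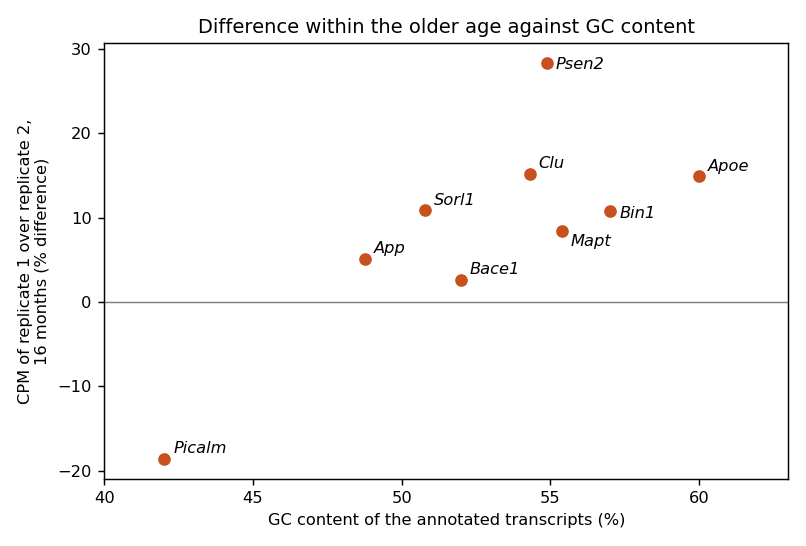
Difference of CPM between replicates 1 and 2 of 16 months (percent, replicate 1 over replicate 2) against the GC content of the annotated transcripts (percent), 1 point for each of the 9 genes. Picalm at 42.02% GC lies at −18.6%, and the other 8, at 48.8% to 60.0% GC, lie above 0.

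When offsets for GC content and gene length were included, the SD at 16 months was smaller for 8 of the 9 members, all except App, and for 71.0% of all tested genes. It was then 0.023 for Picalm, 0.027 for Clu and 0.097 for Psen2. After this correction the ages did not overlap in 4 members, App, Bace1, Clu and Picalm, all higher at 16 months, an order found in 16.7% of all tested genes, where 33% did not overlap in either direction. Picalm was then at 203, 200.5 and 205 CPM at 6 months and at 216.3, 216.1 and 210.3 CPM at 16 months. Clu was at 713, 689 and 711 CPM at 6 months and at 753, 725 and 739 CPM at 16 months. With these offsets edgeR called 0 of the 9, against 15.1% of all tested genes, with adjusted P of 0.0561 for Bace1 and 0.0748 for Picalm.

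Of the other genes of the pathway, 114 list entries in 7 groups were examined, and 2 of the 113 that passed the filter were called, 0 higher and 2 lower, where 1.67% of all tested genes were called. Among the 17 relatives, adaptors and secretases of App, 0 were called by edgeR, 3 had an unadjusted P under 0.05 (17.4% of all tested genes), 12 had a positive value and the median log2 fold change was 0.058. Aplp1, an App paralog, had 997 ± 24.9 CPM at 6 months and 1055 ± 148 CPM at 16 months (SD, n = 3 each). Itm2b, which binds App, had 674 ± 21.2 and 690.5 ± 27.4 CPM (SD, n = 3 each). Neither difference was larger than the spread between samples.

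None of the 11 amyloid-beta degrading enzymes was called (4 at an unadjusted P under 0.05, against 17.4% of all tested genes), 7 had a positive value and the median was 0.051. Ctsb and Ctsd, which encode the lysosomal proteases cathepsin B and D, were the most abundant of them, with log2 fold changes of 0.051 and 0.0038. Among 14 tested genes of apolipoproteins, their receptors and lipid transport, 1 was called (1.67% of all tested genes) and the median was −0.012. At an unadjusted P under 0.05 the count was 4, where 17.4% of all tested genes passed. The called gene was Apod, itself a small lipid-binding apolipoprotein of glia. It was measured at 236, 248 and 252 CPM at 6 months and at 179, 199 and 192 CPM at 16 months. Every older sample lay below every younger one, and Apod fell by 0.37 on the log2 scale (SE 0.057, edgeR adjusted P = 0.0136). Apod was no longer called when any 1 sample of 6 months or replicate 3 of 16 months was left out. Apoc2 was at 2 counts or fewer in every sample and was not tested.

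Of 16 genes of the retromer, sorting receptors and related sorting proteins, 0 were called (4 at an unadjusted P under 0.05, against 17.4% of all tested genes), with a median of 0.032. Sort1, the sortilin receptor related to Sorl1, was measured at 635.6, 601 and 619 CPM at 6 months and at 681, 647 and 635.9 CPM at 16 months. The ages narrowly did not overlap (635.6 against 635.9 CPM), an order found in 12.2% of all tested genes. Sort1 had a log2 fold change of 0.082 and an edgeR adjusted P of 0.447. Vps35, the core subunit of the retromer, had a log2 fold change of −0.15 (edgeR adjusted P = 0.295). Its level in replicate 2 of 16 months, 302 CPM, lay within the younger range of 299.9 to 308 CPM.

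Among 20 kinases, phosphatases and regulators of tau, 0 were called (4 at an unadjusted P under 0.05, against 17.4% of all tested genes), 18 had a positive value and the median was 0.078, the highest of the 7 lists. Ppp2ca and Ppp2r1a, the catalytic and scaffold subunits of the phosphatase PP2A, which removes phosphate from tau, were higher in each older than in each younger sample. This order was found in 12.2% of all tested genes, and for Ppp2ca the gap was narrow (417.9 against 418.1 CPM). The log2 fold changes of Ppp2ca and Ppp2r1a were 0.059 and 0.16, with edgeR adjusted P of 0.574 and 0.242. The 12 other microtubule-associated proteins had a median of 0.062 and 0 called genes (1 at an unadjusted P under 0.05, where the share of all tested genes was again 17.4%). Map2, the dendritic relative of tau, and Map1a had log2 fold changes of 0.062 each, with standard errors of 0.066 and 0.069.

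Of 23 further genes linked to human risk loci of Alzheimer disease or to their products, 1 was called and the median was −0.019. Of all tested genes 1.67% were called. At an unadjusted P under 0.05 the count was 7, where 17.4% of all tested genes passed. Tyrobp, the signalling adaptor of microglial receptors such as Trem2, was measured at 16.7, 16.5 and 17.6 CPM at 6 months and at 13.9, 12.6 and 13.1 CPM at 16 months. It fell by 0.36 on the log2 scale (SE 0.067, edgeR adjusted P = 0.029), and the ages did not overlap. The call was lost with counts thinned to the smallest total and without any 1 sample of 6 months or replicate 3 of 16 months. Beside it, 1 of 10 microglia markers was called, Aif1, which was lower as well (log2 fold change −0.43). Of the 10 markers, 4 had a positive and 6 a negative value, and their summed level was 516 to 539 CPM at 6 months and 520 to 536 CPM at 16 months.

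**Figure D5:**
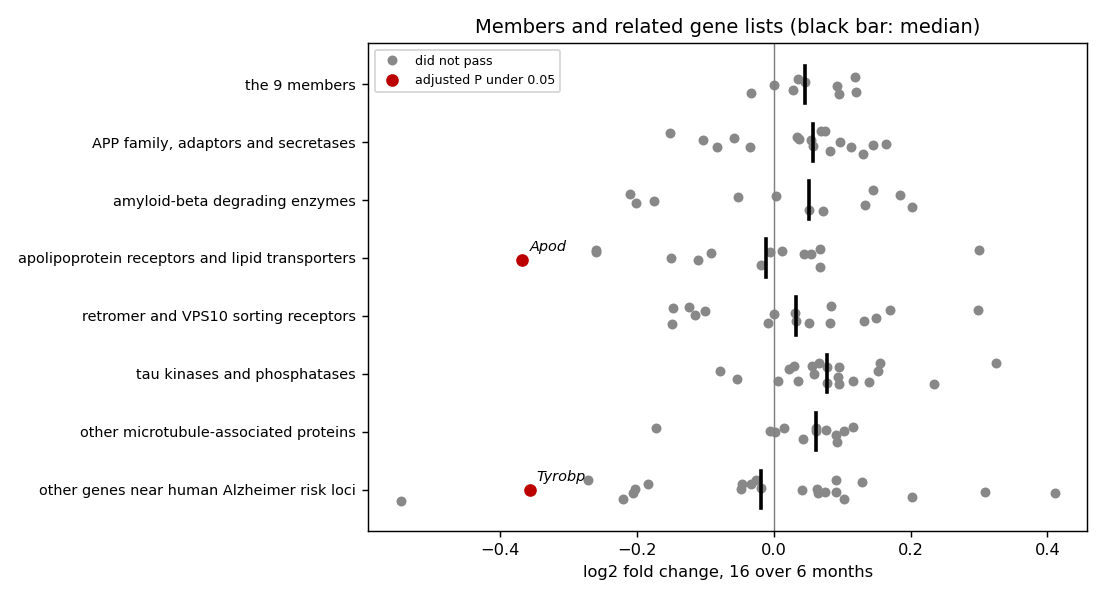
Log2 fold change (16 over 6 months) of the 9 genes and of the tested genes of 7 related lists, 1 point for each gene, with red points for genes at an adjusted P under 0.05 and a black bar for the median of each list. Apod (−0.37) and Tyrobp (−0.36) are the only red points, and the medians lie between −0.019 and 0.078.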

How the data were processed

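Cortex RNA of 3 samples per age was sequenced as paired-end polyadenylated libraries. Per the study's methods, the authors trimmed the reads, aligned them to mm10 with STAR and deposited raw counts per Ensembl gene, without normalization. The methods name HTSeq, whose summary lines end each file and were left out, whereas the submitters' processing notes list featureCounts. The methods state default settings in general, and neither the strand setting nor the Ensembl release is named in the sources used here. Of 38355 genes, 36602 were matched by identifier to GENCODE M21 (GRCm38). Ages were compared over all genes with edgeR 4.0.16 in R 4.3.3 (TMM, filterByExpr, quasi-likelihood test in its older form, Benjamini-Hochberg adjustment at 0.05, no covariates), with 95% intervals from the fitted standard error. DESeq2 1.42.0 was an alternative. Offsets were computed from the deviations of log2 CPM (prior count 2) from each gene's mean over all samples. They were medians of these deviations over 20 bins of GC content and then of exon length in each sample. Exact permutation tests were two-sided. Samples of one age differed by more than sampling noise. P-values measure the spread between these samples, and counting errors cover counting only. The 9 genes and all lists were chosen with earlier results of these data known. Named from each list were its called genes (at most 4) or otherwise the 2 with the highest mean CPM. Alternatives were other normalizations, filters, fits, the replicate block, offsets, thinning and each sample left out. A few genes of the lists and of the comparison by nearest pattern are not reported here.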

Additional observations from a re-analysis of the deposited data

How the results depend on the processing

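None of the 9 members was called under the alternatives tried except with GC and length offsets together with the replicate block, which called 4, all higher at 16 months (11.1% of all tested genes): Bace1 (log2 fold change 0.090), Clu (0.069), Sorl1 (0.075) and Picalm (0.078), with Benjamini-Hochberg adjusted P from 0.0284 to 0.0391 (edgeR). The cause was not tested. With the replicate block alone 0 members and 783 genes (4.57%) were called. Deviations of same-numbered samples from their age means correlated across genes with r = 0.180, 0.0958 and 0.0351. Each sample correlated best with its own number, except replicate 3 of 16 months (0.0379 with replicate 2 of 6 months). The sample titles name no pairs, and whether the numbers mark pairs was not tested. The block was therefore kept as an alternative only. The direction of Psen2 turned with GC and length offsets (−0.0097) and with these and the block (−0.0074). That of Bin1, whose value is near 0, turned with upper quartile normalization (−0.014), no filter (−0.0034), at least 10 counts in every sample (−0.0012), the replicate block (−0.00056), the offsets (−0.034), the offsets with the block (−0.035) and thinning (−0.0062). Leaving out 1 sample each gave log2 fold changes from 0.077 to 0.11 for App, −0.047 to 0.12 for Psen2, 0.11 to 0.14 for Bace1, 0.018 to 0.076 for Mapt, −0.091 to 0.010 for Apoe, 0.041 to 0.14 for Clu, −0.036 to 0.038 for Bin1, 0.072 to 0.16 for Sorl1 and −0.049 to 0.10 for Picalm, with 0 members called in each of these fits.

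Over all genes, 286 were called, 648 without a filter, 470 by DESeq2, 2590 with offsets, 3584 with offsets and the block, and between 48 and 2211 without 1 sample (48 to 58 without any 1 sample of 6 months or replicate 3 of 16 months, 995 without replicate 1 and 2211 without replicate 2 of 16 months). Without both replicates 1 and 2 of 16 months, a fit chosen after seeing the data in which the lone older sample is assumed to vary like the younger ones, 1786 genes and 0 members were called. The lists hold 17 tested App relatives, 11 degrading enzymes, 14 lipid transport genes, 16 sorting genes, 20 tau regulators and 23 risk genes. Here lipid transport genes include apolipoproteins and their receptors, and sorting genes include the retromer, sorting receptors and related proteins. In this order, 3, 3, 5, 5, 5 and 4 were called with offsets, and 3, 4, 5, 5, 6 and 6 with offsets and the block. Of 12 microtubule-associated proteins, 1 and 2 were called in these fits. The shares of all tested genes were 15.1% with offsets and 20.9% with offsets and the block. Without a filter, by DESeq2 and with the block, the lipid transport list had 2, 2 and 4 called genes, the sorting list 1, 1 and 1, and tau regulators 2, 1 and 1. The shares of all tested genes were 2.35%, 2.67% and 4.57% in the same order. With thinned counts, risk genes had 0, where 1.4% of all tested genes were called. Leaving out 1 sample each gave 0 to 2 called genes for App relatives, 0 to 2 for degrading enzymes, 0 to 4 for lipid transport genes and 0 to 5 for sorting genes. The counts were 0 to 6 for tau regulators, 0 to 1 for microtubule-associated proteins and 0 to 4 for risk genes. The share of all tested genes called in these fits ran from 0.277% to 12.7%. Psen2 had the lowest counts of the members, and the part of depth in its spread was not tested. With thinned counts its log2 fold change was 0.018 (SE 0.096), beside 0.028 (SE 0.091) in the main fit.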

Other observations

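In the edgeR fit that included the GC and length offsets, 5 of the 20 kinases, phosphatases and regulators of tau were called, all higher at 16 months, where 7.85% of all tested genes were called as higher. They were Cdk5r2 and Cdk5r1, activators of the kinase Cdk5, the kinases Fyn and Gsk3a, and Ppp2r1a, with log2 fold changes of 0.27, 0.12, 0.21, 0.11 and 0.13. In the same fit, 5 of the 14 tested genes of apolipoproteins, their receptors and lipid transport were called. Of all tested genes 15.1% were called, 7.28% as lower. Of the 5, not all of which are named here, Abca7, Abca1 and Apod were lower (log2 fold changes −0.31, −0.15 and −0.36). Lcat was higher (0.33). The genes named here from both lists were singled out after their values had been seen. In the edgeR fit reported above, with the filter and with neither offsets nor the replicate block, 1 of these 9 genes (Apod) was called, and other fits without offsets called more of them.

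The gene whose log2 CPM, centred over the 6 samples, lay nearest to that of each member was found among all tested genes. It was Zfp827 for App, Cobl for Bace1, Tbc1d22a for Psen2, Ppp1r16b for Sorl1, Degs2 for Bin1, Ubxn2a for Picalm, Zfyve27 for Apoe, Ryr1 for Clu and Sidt1 for Mapt. The root mean square distances over the 6 samples lay between 0.00618 and 0.0245 (log2), whereas the median distance of all tested genes from a member was 0.119 to 0.159. Among the members themselves, App and Bace1 were nearest to each other (0.017), as were Mapt and Bin1 (0.0284). With so many genes compared over 6 samples, such small distances are a description only.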
